A study of Caenorhabditis elegans with 2 samples.

Results

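The 45 genes described here encode the small RNA machinery of Caenorhabditis elegans: Argonautes, Dicer and its helicases, RNA-dependent RNA polymerases (RdRPs), mutator proteins, RDE factors and nuclear RNAi proteins. They were taken by gene symbol from the deposited table of exon and intron reads, in which 45 of 45 names were found among 19487 genes. The selection rule itself uses names and no measured value. Small RNAs guide Argonaute proteins to matching transcripts. Dicer and Drosha cut microRNAs and primary siRNAs from longer precursors, RdRPs copy targeted transcripts into secondary siRNAs, and worm-specific Argonautes (WAGOs) use these to silence or protect genes. Many of these proteins act in the germline, and their mRNAs are loaded into the embryo by the mother. The libraries hold mRNA of the genes that encode this machinery, and no small RNAs were measured.

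RNA came from embryos of mixed stages of strain BW1943, with the mutations gad-1(ct226) and dpy-11(e224) on chromosome V. One group was collected at 16 °C and the other at 25 °C, and each is a single library. The series title places GAD-1 in pre-mRNA splicing and transcription elongation with the Prp19 complex (NTC), and the comparison asks which transcripts hold more intron sequence at the higher temperature. Both groups carry both alleles and no wild-type library is in the series, so an effect of temperature and an effect of the mutation cannot be told apart. With 1 library per group no difference has a replicate check. Every test compares the reads of these 2 libraries and not the temperatures, and every interval is an exact 95% interval that covers counting error only.

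Depth in genes was 22016818 reads for 16 °C and 18175617 reads for 25 °C. Exon reads of intestine and pharynx markers were several-fold lower at 25 °C, while those of muscle and neuron markers differed little from the typical gene. The 9 of 10 listed intestine markers that were found summed to 806 exon reads per 1000000 library reads at 16 °C and 95.6 at 25 °C, with none and 1 at 0 reads. The 8 of 8 pharynx markers summed to 604 and 45.4. The 8 of 8 body wall muscle markers summed to 2725 and 2318, and the 8 of 8 neuron markers to 698 and 579. Of the muscle markers 6 lay within 2-fold, and of the neuron markers 5. Their median log2 differences were -0.63 and -0.55, beside -0.42 over all genes. The 12 of 12 maternal germline markers summed to 853 and 789, with 12 of 12 within 2-fold. The 6 of 10 sperm markers found were near the floor, at 3.68 and 7.15 on the same scale. The part that this difference in tissue markers has in the values below was not tested. In whole embryos, fewer cells of a type and less RNA per cell cannot be told apart.

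Exon reads of most small RNA genes differed little between the libraries. Exon reads were scaled by each library's total of exon and intron reads, and a gene was compared when it had at least 10 exon reads in 1 library, which 43 of 45 members had. Of these 43, 1 was at least 2-fold higher at 25 °C, 0 were at least 2-fold lower, and 42 lay within 2-fold. Over all 14313 genes compared, 5.81% passed 2-fold upwards and 33.6% passed it downwards. These shares were not matched for depth: median combined exon and intron reads were 2590 in the 45 members and 211 over all 19487 genes. The members' median log2 difference was 0.13, with quartiles of -0.03 and 0.37, beside a median of -0.42 and quartiles of -1.54 and 0.18 over all genes. Scaling by the median exon ratio of expressed genes instead shifted all genes by 0.27 (log2). Under it 8 members changed sign, the members' median became 0.39 and that of all genes -0.15.

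Measured per length, the members span a wide range of levels. In exon reads per 1000000 library reads and kilobase of exon, the 43 members with enough reads ran from 3.69 to 165 at 16 °C with a median of 21.5, and from 5.36 to 231 at 25 °C with a median of 24.01. The median of the 14972 genes with at least 10 combined reads was 12.9 at 16 °C and 7.71 at 25 °C. At 16 °C the highest exon levels belonged to the microRNA Argonaute gene alg-2 (165 at 16 °C and 231 at 25 °C), to ergo-1 (160.5 and 187), and to the other microRNA Argonaute gene, alg-1 (112 and 100.4). The lowest at 16 °C were those of the RdRP gene ego-1 (3.69 and 6.59) and of wago-4 (4.13 and 6.06). At the other end stood the sperm Argonaute genes alg-3 and alg-4, whose products bind primary siRNAs in the male germline. alg-3 had 4 exon reads at 16 °C and 3 at 25 °C, alg-4 had 0 and 2, and neither had an intron read, so these 2 members were not tested. They are near-identical copies of each other, so reads may be shared between them.

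**Figure D1:**
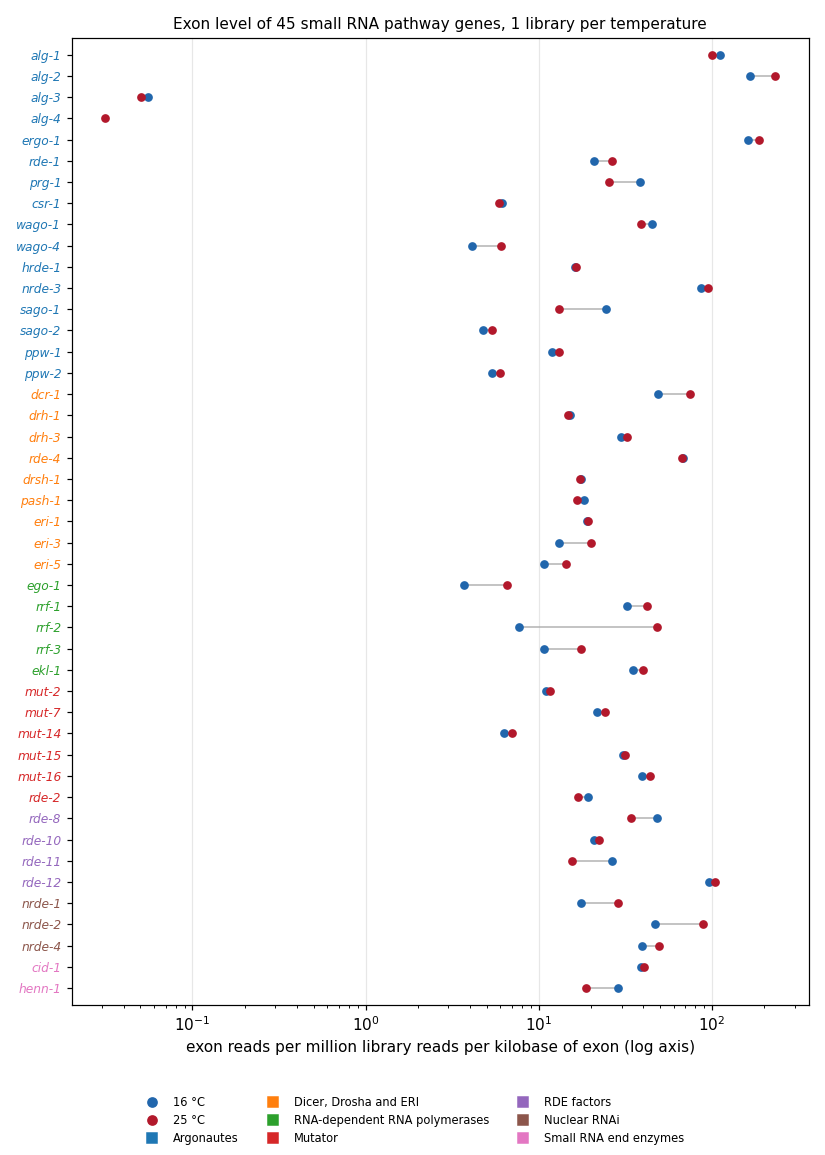
Exon level of each of the 45 members at 16 °C (blue) and 25 °C (red), in exon reads per 1000000 library reads and kilobase of exon on a log axis, with gene names coloured by role. Each point is 1 library; rrf-2 shows the longest line, from 7.72 to 48.2, and alg-3 and alg-4 lie near 0 (alg-4 had no read at 16 °C and has no blue point).

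Intron reads made up a larger part of the members' reads at 25 °C. The 45 genes together had 1435 intron and 111060 exon reads at 16 °C, and 2344 intron and 109165 exon reads at 25 °C. Their intron share was 1.28% (1.21 to 1.34) at 16 °C and 2.10% (2.02 to 2.19) at 25 °C, beside 1.43% and 2.47% over all genes. The ratio of intron to exon reads of each gene was compared between the libraries with a two-sided Fisher exact test, adjusted by Benjamini-Hochberg over 14972 genes at 0.05. It rose in 23 of the 43 tested members, fell in 1 and was not called in 19. Over all tested genes the ratio rose in 28.1% and fell in 0.614%. That share depends on how many intron reads a gene has: where a gene had 20 or more combined intron reads, it rose in 51.1% and fell in 0.945%, and in the 30 members with that many it rose in 17 and fell in 1. Among such genes the members' share of rises (56.7%) was near that of all genes. This holds for that range of reads only. Under 20 combined intron reads the members rose more often than all genes did, on few members and with depth not matched.

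By size the members also stood near the typical gene. The median log2 ratio, with 0.5 reads added to each count, was 1.01 over the 43 tested members (2.02-fold) and 1.06 over all tested genes (2.09-fold). Of the 43 members 40 (93.0%) lay above 0, beside 80.4% of all tested genes. These shares were not matched for depth: median combined intron reads were 40 in members and 16 over all tested genes. In the 7 tested members with no intron read in 1 library, the value depends on the added reads. With intron counts under 3 set at 3 the members' median was 0.97. By the adjusted p of the authors' deposited table, at 0.01, 3 members passed, namely alg-1, nrde-2 and nrde-3, where 5.57% of all genes passed. The numerator carried most of the members' difference: library-scaled intron reads had a median log2 difference of 1.18, beside 0.40 over all tested genes. In the 23 members whose ratio rose, scaled intron reads were higher at 25 °C in 23 and exon reads lay within 2-fold in 23. Their medians were 1.68 and 0.12 on the log2 scale. These 23 were picked by a higher ratio, and 42 of the 43 members compared lay within 2-fold in exon reads. Both counts therefore follow largely from the choice and add no support.

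**Figure D2:**
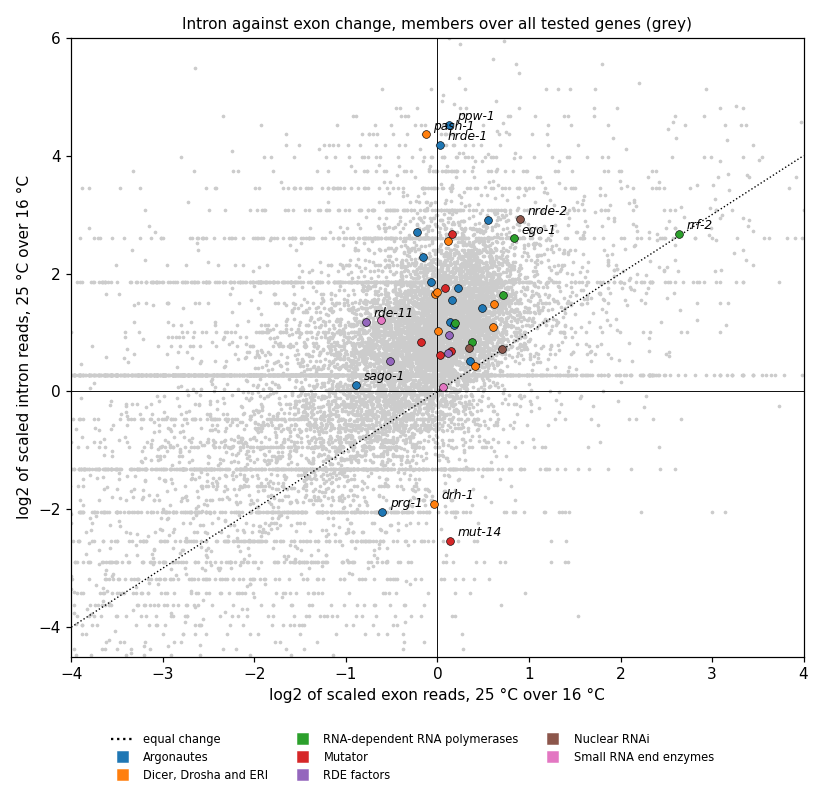
Log2 difference (25 °C over 16 °C) of library-scaled exon reads on the x axis and intron reads on the y axis, 0.5 reads added, for the 43 tested members (coloured by role) over all tested genes (grey; those outside the axes are not shown). Most members sit above the dotted line of equal change and near 0 in exon reads, rrf-2 lies on the line far to the right, and drh-1, prg-1 and mut-14 lie below it.

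Among Argonaute genes the ratio rose in 8 of 14 tested, with a larger fold in alg-1 than in alg-2 of the microRNA pair. Of the 6 with at least 20 combined intron reads 4 rose, where 51.1% of all such genes rose. ALG-1 and ALG-2 are closely related Argonautes that bind microRNAs in the embryo. alg-1 (X, 13949110 to 13956261, plus strand) had 15 intron reads in the 16 °C library and 62 in the 25 °C library, with 12306 and 9130 exon reads. Its ratio rose 5.57-fold (3.13 to 10.6; adjusted p = 8.81e-10 by Fisher exact test), while its exon reads were 1.11-fold lower (1.08 to 1.14). alg-2 (II, 873212 to 879885, plus strand) had 43 and 95 intron reads against 11955 and 13822 exon reads. Its ratio rose 1.91-fold (1.32 to 2.81). Exon reads of alg-2 were 1.40-fold higher (1.37 to 1.44). The interval of alg-1 began above the upper end of that of alg-2, but the difference between the genes was not tested. Small non-coding genes overlap both loci in the annotation, so their intron reads are uncertain.

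Of the Argonautes of primary siRNAs and piRNAs, the ratio rose in ergo-1 and was not called in rde-1 and prg-1. ergo-1, whose product binds endogenous siRNAs made in oocytes and embryos, had 19 and 54 intron reads and rose 2.96-fold (1.72 to 5.29), with 13456 and 12931 exon reads. Its annotated span overlaps the gene pei-2 on the opposite strand. rde-1, the Argonaute of RNAi from external double-stranded RNA, had 49 and 58 intron reads against 1468 and 1547 exon reads, a ratio of 1.12 (0.75 to 1.69) that was not called (adjusted p = 0.937 by Fisher exact test). prg-1, the piRNA Argonaute, had 2 intron reads at 16 °C and 0 at 25 °C, too few for a fold. Its exon reads were 2357 and 1280, or 1.52-fold lower (1.42 to 1.63).

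In wago-1, wago-4, hrde-1 and ppw-1, which act in the germline, the ratio rose from very few intron reads at 16 °C. The rise was not shared by all such genes: csr-1, also of the germline, and ppw-2 were not called (values below). wago-1, which acts in germ granules, had 2 and 13 intron reads against 3073 and 2181 exon reads, and rose 9.16-fold (2.07 to 83.6; adjusted p = 0.00408 by Fisher exact test). wago-4, needed for inherited silencing, had 2 and 15 against 306 and 371, and rose 6.19-fold (1.42 to 56.1; adjusted p = 0.0232 by Fisher exact test). hrde-1, the nuclear Argonaute of the germline, had 0 and 7 intron reads against 1253 and 1055 exon reads. ppw-1, needed for RNAi in the germline, had 0 and 9 against 839 and 756. Against a floor of 3 reads at 16 °C per library, the ratio was at least 2.77-fold higher in hrde-1 and at least 3.33-fold higher in ppw-1. The call in each of these 4 genes rests on 15 or fewer intron reads per library. All 4 had under 20 combined intron reads, a range where rises were rarer over all genes. Of 4200 rises among 14972 tested genes, 3570 were in the 6984 genes with at least 20. ppw-1 and sago-2 are close copies, so reads may be divided between them.

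The other secondary Argonautes included nrde-3, with the narrowest interval of the group. nrde-3, which carries siRNAs into somatic nuclei, had the most intron reads among Argonaute genes, with 120 and 225 against 6562 and 5956 exon reads. Its ratio rose 2.07-fold (1.64 to 2.61; adjusted p = 3.97e-09 by Fisher exact test). sago-1 had 9 and 8 intron reads against 1652 and 735 exon reads. The ratio of 2.00 (0.67 to 5.86) was not called, and its exon reads were 1.86-fold lower (1.70 to 2.03), the lowest exon fold of the 43 members. sago-2 had 7 and 13 intron reads, a ratio of 1.99 (0.72 to 5.96) that was not called. ppw-2, with 3 and 8, had 2.88 (0.68 to 17.0), also not called. csr-1, whose product binds siRNAs against expressed germline genes, had 485 and 382 exon reads with 0 and 1 intron reads, which allow no fold.

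**Figure D3:**
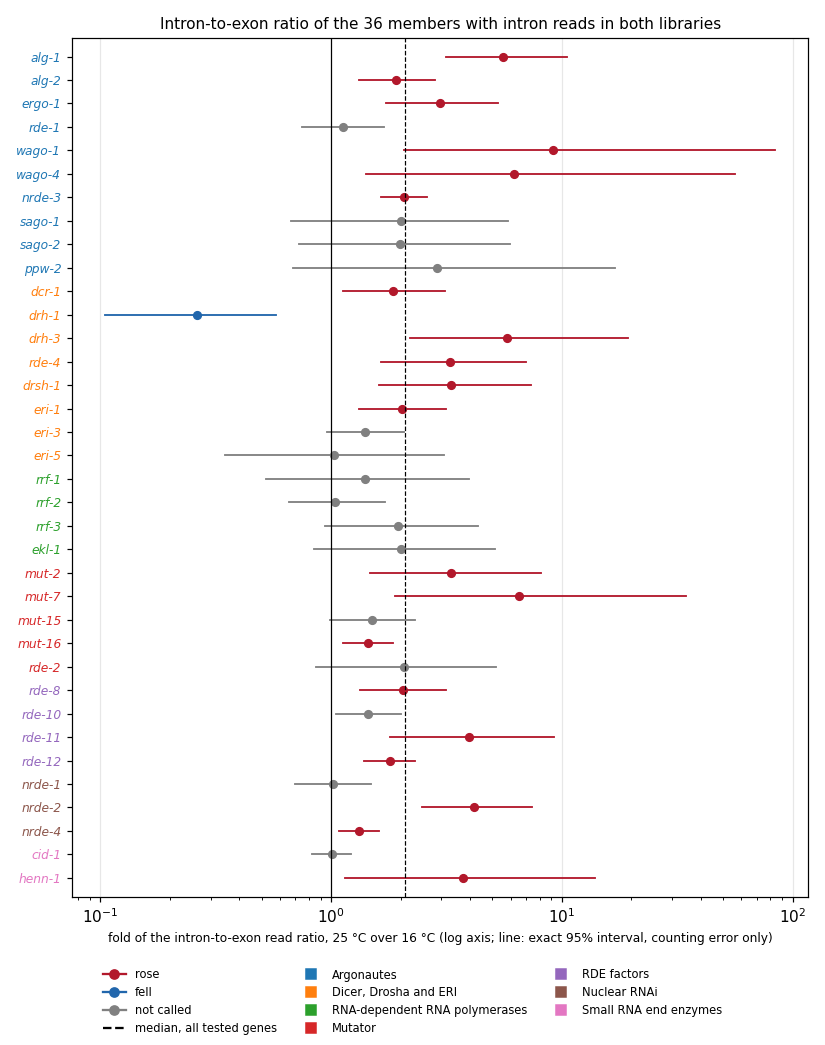
Fold of the intron-to-exon read ratio, 25 °C over 16 °C, on a log axis for the 36 members with intron reads in both libraries; points are ratios of the counts and lines exact 95% intervals of counting error, red where the ratio rose, blue where it fell and grey where it was not called. The dashed line is the median of all tested genes, 2.09-fold; drh-1 is the 1 member left of the solid line at 1 with an interval that does not reach it.

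Genes for processing double-stranded RNA included the 1 fall. Among the 9 genes of Dicer, Drosha and the ERI complex the ratio rose in 6, fell in 1 and was not called in 2. Of the 7 with at least 20 combined intron reads 5 rose, where 51.1% of all such genes rose. drh-1 encodes a Dicer-related helicase that recognises viral RNA. It had 38 intron reads at 16 °C and 8 at 25 °C, while its exon reads were 1095 and 879. The ratio (IV, 6607376 to 6613353, minus strand) fell 3.81-fold (1.74 to 9.51; adjusted p = 0.00147 by Fisher exact test). Scaled intron reads were 3.92-fold lower (1.80 to 9.73) and exon reads 1.03-fold lower (0.94 to 1.13), and no other annotated gene overlaps drh-1. A close copy, drh-2, is known in this species, and reads may be shared with it.

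drh-3, the helicase that works with RdRPs, differed from drh-1 in direction. It had 5 and 26 intron reads against 2331 and 2089 exon reads, and its ratio (I, 7820831 to 7826378, plus strand) rose 5.80-fold (2.19 to 19.4; adjusted p = 3.14e-04 by Fisher exact test). The intervals of drh-3 and drh-1 do not overlap, and the difference between the genes was not tested. dcr-1, the single Dicer of the worm, had 24 and 56 intron reads against 6382 and 8067 exon reads, and rose 1.85-fold (1.12 to 3.12; adjusted p = 0.0448 by Fisher exact test). Its exon reads were 1.53-fold higher (1.48 to 1.58). Its partner rde-4, which binds double-stranded RNA, had 12 and 32 intron reads and rose 3.28-fold (1.64 to 7.02), with exon reads 1.02-fold lower (0.95 to 1.09).

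The microRNA processing genes rose with level exon reads. drsh-1, which encodes Drosha, had 11 and 30 intron reads against 1433 and 1178 exon reads, and rose 3.32-fold (1.61 to 7.37). Its partner pash-1 had 0 and 8 against 1030 and 777, which is 3.53-fold higher against the floor (adjusted p = 0.00611 by Fisher exact test). The annotation places tRNA genes and a microRNA within pash-1 and the gene gpx-1 over drsh-1, so their intron reads are uncertain. Of the ERI genes, which make primary endogenous siRNAs with Dicer, the exonuclease gene eri-1 had 38 and 64 intron reads and rose 2.03-fold (1.32 to 3.14). eri-3 had 50 and 88, a ratio of 1.40 (0.96 to 2.06) that was not called, with exon reads 1.52-fold higher (1.36 to 1.71). eri-5 had 8 and 9, a ratio of 1.02 (0.35 to 3.08), also not called.

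Among RdRP genes rrf-2 had the largest exon difference of the members, and the rest differed by less than 2-fold. The group holds the 4 RdRP genes and ekl-1, whose tudor-domain product works with them. Their median log2 exon difference was 0.72, and 5 of 5 lay above 0. So did 30 of the 43 members compared (69.8%) and 32.8% of all genes compared. By the adjusted Fisher exact test 0 of 5 ratios were called, and 0 of 5 had an unadjusted p under 0.05. Of all tested genes 28.1% rose. In this group 4 genes had at least 20 combined intron reads, where 51.1% of all genes rose. A count of 0 among so few genes says little about the group. rrf-2 (I, 12098664 to 12106112, minus strand), which encodes a protein of the RdRP family, had 823 exon reads at 16 °C and 4240 at 25 °C, which is 6.24-fold higher (5.79 to 6.73). It was the 1 member that passed 2-fold. Its intron reads were 23 and 123, 6.48-fold higher (4.13 to 10.6), so its ratio was 1.04 (0.66 to 1.71). No other annotated gene overlaps rrf-2.

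The other RdRP genes were higher by less than 2-fold. ego-1, the germline RdRP, had 424 and 624 exon reads (1.78-fold higher, 1.57 to 2.02) and 0 and 2 intron reads. rrf-3, which makes templates for primary endogenous siRNAs, had 1300 and 1766 exon reads (1.65-fold higher, 1.53 to 1.77) and 11 and 29 intron reads, a ratio of 1.94 (0.94 to 4.32). rrf-1, the RdRP of somatic RNAi, had 3573 and 3836 exon reads (1.30-fold higher, 1.24 to 1.36) and 8 and 12 intron reads, a ratio of 1.40 (0.52 to 3.95). rrf-1 and ego-1 lie in tandem on chromosome I with 563 bases between them. ekl-1 had 9 and 17 intron reads, a ratio of 2.01 (0.84 to 5.13), and 1658 and 1558 exon reads. Scaled by the median exon ratio, ego-1 passed 2-fold as well, at a log2 of 1.10.

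Mutator genes kept level exon reads while 3 of 6 ratios rose. Their products gather at perinuclear foci where secondary siRNAs are amplified, and MUT-16 is the scaffold of these foci. Exon differences of the group ran from -0.18 to 0.16 on the log2 scale. Of the 5 mutator genes with at least 20 combined intron reads 3 rose, where 51.1% of all such genes rose. mut-7, a gene with an exonuclease domain, had 3 and 18 intron reads against 1413 and 1302 exon reads, and rose 6.51-fold (1.89 to 34.6; adjusted p = 0.00339 by Fisher exact test). mut-2, which encodes a nucleotidyltransferase that tails target RNA, had 9 and 26 and rose 3.31-fold (1.48 to 8.13), though it overlaps bli-4. mut-16 had 118 and 156 intron reads against 3677 and 3372 exon reads, and rose 1.44-fold (1.12 to 1.86). mut-15 with 44 and 56 intron reads (ratio 1.51, 0.99 to 2.31) and the mut-7 partner rde-2 with 10 and 15 (2.06, 0.86 to 5.17) were not called. mut-14, a DEAD-box helicase gene, had 3 and 0 intron reads, which allow no fold.

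In the RDE group the ratio rose in 3 of 4 genes, and the complex partners rde-10 and rde-11 differed in exon reads. All 4 had at least 20 combined intron reads, where 51.1% of all genes rose. RDE-10 and RDE-11 form a complex that promotes secondary siRNA production. rde-11 had 751 and 361 exon reads, 1.72-fold lower (1.51 to 1.95), and 11 and 21 intron reads. Its ratio rose 3.97-fold (1.80 to 9.21; adjusted p = 0.00127 by Fisher exact test), so fewer exon reads and more intron reads both entered it. rde-10 had 1029 and 917 exon reads, 1.08-fold higher (0.99 to 1.18), and its ratio of 1.45 (1.05 to 2.02) was not called (adjusted p = 0.0688). The endonuclease gene rde-8 had 45 and 53 intron reads against 1191 and 687 exon reads, and rose 2.04-fold (1.33 to 3.14). rde-12, which encodes a DEAD-box helicase, had 103 and 166 against 6905 and 6211, and rose 1.79-fold (1.39 to 2.32).

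All 3 nuclear RNAi genes had higher exon reads at 25 °C, each by less than 2-fold, and they differed in intron reads. Exon reads were also higher in 69.8% of the 43 members compared and in 32.8% of all genes compared. NRDE proteins act downstream of nuclear Argonautes to silence genes at the chromatin. nrde-2 (II, 10242596 to 10247638, minus strand) had 4198 and 6490 exon reads, 1.87-fold higher (1.80 to 1.95), and 17 and 109 intron reads. Its ratio rose 4.15-fold (2.47 to 7.39; adjusted p = 1.46e-08 by Fisher exact test), as its intron reads were 7.77-fold higher (4.63 to 13.8). nrde-1 had 1048 and 1414 exon reads, 1.63-fold higher (1.51 to 1.77), with 54 and 74 intron reads. Its ratio was 1.02 (0.70 to 1.48) and was not called. nrde-4 had 193 and 266 intron reads against 2485 and 2602 exon reads, and rose 1.32-fold (1.08 to 1.61). The annotated span of nrde-4 overlaps the gene cima-1, so its intron reads are uncertain. Scaled by the median exon ratio, nrde-2 passed 2-fold in exon reads, at a log2 of 1.17.

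The enzymes that modify small RNA ends gave a flat and a borderline ratio. cid-1, whose product adds uridines to siRNAs bound by CSR-1, had 237 and 205 intron reads against 4126 and 3549 exon reads. Its ratio of 1.01 (0.83 to 1.22) was not called, and the interval ended well under the 2.09-fold of the typical gene. henn-1 encodes the methyltransferase that protects the ends of piRNAs and some siRNAs. It had 5 and 10 intron reads against 1014 and 546 exon reads, 1.53-fold lower in exon reads (1.38 to 1.70). The ratio rose 3.71-fold (1.15 to 13.9), with an adjusted p of 0.04998 by Fisher exact test, the closest to the threshold of all members. henn-1 overlaps other annotated genes.

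Intervals of single members were also set against the typical gene. Of the 36 members with intron reads in both libraries, 3 had an interval wholly above the 2.09-fold median of all genes (alg-1, drh-3 and nrde-2). For 9 it lay wholly below (drh-1, cid-1, rde-1, nrde-1, rrf-2, nrde-4, mut-16, rde-10 and eri-3), and for 24 it included that median. Genes with at least 20 combined intron reads had a lower median (log2 of 0.97, beside 1.06 over all tested genes). The intervals of rde-10 and eri-3 ended at 2.02 and 2.06, so their place below depends on which median is used. Over all 10744 tested genes with reads of both kinds in both libraries, 9.47% lay wholly above and 14.9% wholly below. All 12 of these members had at least 20 combined intron reads; among the 30 members and 6927 genes with that many, 12.5% of all genes lay above and 20.2% below, beside 3 and 9 of the members. The comparison leaves out any difference between libraries beyond counting.

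Members also differed in how much intron sequence they held at 16 °C. Intron read density, the intron reads per base of intron as a percent of the exon reads per base of exon, was compared in the 30 members with at least 20 combined intron reads. It ran from 0.115% in ergo-1 to 21.1% in rde-1 at 16 °C, with a median of 5.18%. At 25 °C it ran from 0.339% in ergo-1 to 43.2% in mut-2, with a median of 9.99%. The 15 members with the highest density at 16 °C (5.21% to 21.1%) had a median log2 ratio of 0.59 and 7 rises. The 15 with the lowest (0.115% to 5.14%) had a median of 1.02, 10 rises and 1 fall. The 16 °C intron reads enter both the density and the ratio, so the 2 measures are not independent, and no test was made. The highly expressed ergo-1, alg-1 and alg-2 were all among the 6 lowest densities at 16 °C shown at the bottom of the density plot. Their densities depend on the deposited intron length, which differs from the annotated one. Deposited and annotated lengths were 4686 and 5895 bases in ergo-1, 2147 and 456 in alg-1, and 1348 and 2532 in alg-2.

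**Figure D4:**
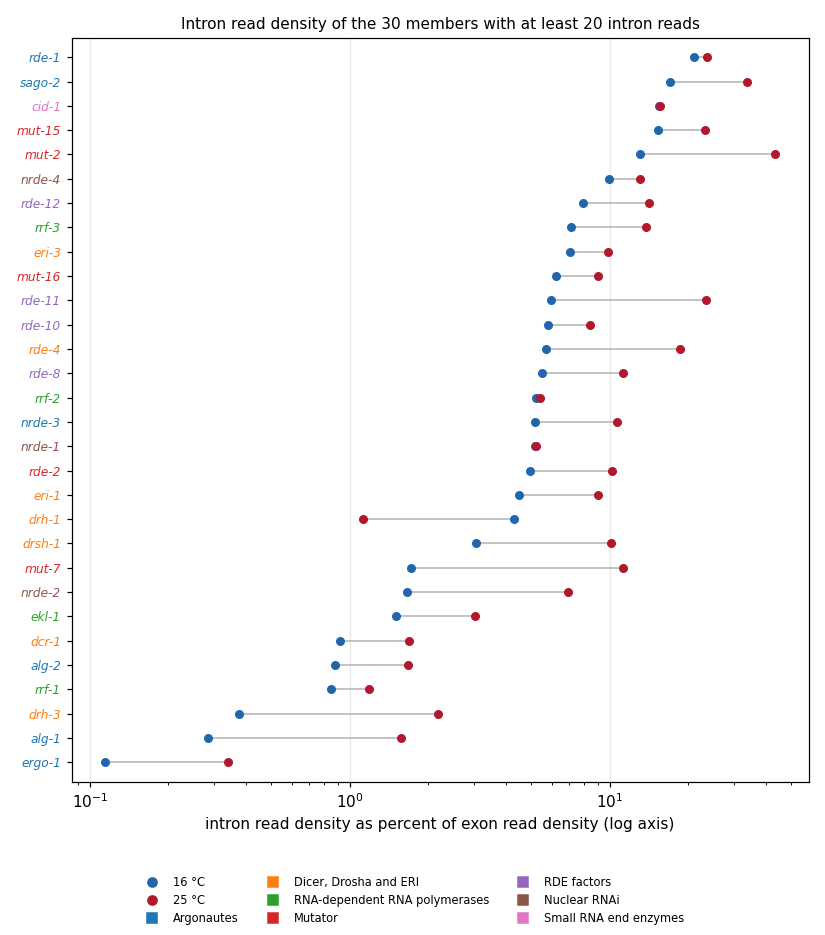
Intron read density as a percent of exon read density, on a log axis, at 16 °C (blue) and 25 °C (red) for the 30 members with at least 20 combined intron reads, ordered by the 16 °C value. Of these 30 genes, drh-1 moved left, from 4.28% to 1.12%, and cid-1, nrde-1 and rrf-2 barely moved, with 5.21% and 5.41% in rrf-2.

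Further genes of small RNA pathways were described in the same way. Of 62 names listed, 52 were matched, 50 were tested, and the ratio rose in 20, fell in 0 and was not called in 30 by the same adjusted Fisher exact test (0 falls also at an unadjusted p under 0.05). The share of rises over all tested genes was 28.1%. With at least 20 combined intron reads it rose in 19 of 32, where 51.1% of all such genes rose. The further genes' median log2 ratio was 1.03. Among those that rose, nyn-1, which encodes an endonuclease-like relative of RDE-8, had 0 and 11 intron reads, 3.58-fold higher against the floor. vig-1, a component of the microRNA silencing complex, had 11 and 65 intron reads against 12573 and 7505 exon reads (9.90-fold, 5.18 to 20.8). meg-4, a germ granule gene, had 1 and 20 (13.5-fold, 2.14 to 560.1), and the piRNA biogenesis gene tofu-5 had 6 and 38 (8.95-fold, 3.73 to 26.02). enri-2, whose product binds nuclear Argonautes, had 4 and 17 (5.70-fold, 1.81 to 23.6).

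Exon reads of these further genes had a median log2 difference of 0.14, with 1 of 50 past 2-fold upwards and 3 downwards. The double-stranded RNA importer gene sid-2, which acts in the intestine, had 195 and 35 exon reads and was 4.60-fold lower. parn-1, whose product trims piRNAs, had 72 and 193 and was 3.25-fold higher. The piRNA gene pid-1 had 317 and 110 (2.38-fold lower), and sid-5, needed for silencing signals to spread between cells, had 687 and 253 (2.24-fold lower). meg-4 had 576 and 854 exon reads, 1.80-fold higher. wago-5 and wago-10 had under 10 combined reads and were not tested.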

How the data were processed

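The authors deposited raw counts of exon reads and intron reads per gene, not normalized, per the file headers. Trimmomatic, TopHat2 and HTSeq are named in the submitters' processing notes, without versions. No source used here gives the genome build, the annotation or the strand setting. The authors' deposited fold is a ratio, recomputed here within 0.01% in 36 of 36 members with a finite fold above 0. The deposited p-value equalled a two-sided Fisher exact test within 2% in 45 of 45 members. Con columns are the 16 °C library and Exp columns the 25 °C library, per the labels' own Con and Exp.

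From the counts, ratios, Fisher exact tests (SciPy 1.17.1), conditional exact intervals of ratios and Clopper-Pearson intervals of exon and intron folds were computed over the whole table. Folds of single genes use counts with nothing added, and log2 values and medians add 0.5 reads. Counts of 0 were set against a floor of 3 reads. Intervals cover counting error only, because there is 1 library per temperature. PCR copies are not separate molecules, so the intervals may be too narrow even for counting error.

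Positions and intron numbers come from Ensembl release 115 (WBcel235), whose summed intron length equalled the deposited one in 28 of 45 members. In it 16 members overlap another gene, and 29 do not. Named genes were the 12 called members with the largest ratio change, the 8 with the largest exon change among those with at least 50 exon reads, uncalled members with at least 20 intron reads, untested members, and up to 5 further pathway genes by each measure. Remaining members are given by their role group, also by name. Members and lists were chosen with earlier results of these data known. Alternatives covered read minimums, scaling, added reads, adjustment, the intron test and overlap-free members.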

Additional observations from a re-analysis of the deposited data

How the results depend on the processing

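The 23 rises and 1 fall became 3 and 0 with the Bonferroni adjustment over 19487 genes at 0.01, the rule behind the authors' deposited calls. Only alg-1, nrde-2 and nrde-3 passed it. This setting changed the adjustment, the number of genes and the threshold together, and their parts were not separated. Among the 29 members that overlap no other gene, of which alg-3 and alg-4 were not tested, 15 rose and 1 fell. The number of rises was lower since fewer members were counted. With no minimum of reads dcr-1 and henn-1 were no longer called (21 rises). Testing intron reads against the library total gave 25 rises, of which 20 were shared with the ratio. rde-8, rde-11 and henn-1 were lost, and rde-10, rrf-3, eri-3, nrde-1 and rrf-2 were gained. The members' median ratio of 1.01 stayed between 0.94 and 1.01 under the alternatives tried. In exon reads, the 1 member at least 2-fold higher and 0 lower became 3 higher with the median exon ratio (rrf-2, nrde-2 and ego-1), 2 with no minimum (alg-4, on 2 reads), and 7 higher and 4 lower at 1.5-fold. The median exon difference of 0.13 became 0.39 with the median exon ratio, by construction of that scaling. Adding 1 read changed no direction in the 26 single-gene values recomputed. Of the 19 uncalled members, 7 had under 20 combined intron reads, where depth limits the test, and 12 had at least 20. No paired analysis was possible because there is 1 library per temperature.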
